A study of Mus musculus with 3 samples.

Results

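The genes described here make proteins that carry out and control translation in mouse cells: initiation factors, elongation factors and aminoacyl-tRNA synthetases. Members were all genes whose single symbol in the probe annotation begins with Eif1 to Eif6 or Eef1 or Eef2, has the ars or ars2 ending of a synthetase, or is Eprs. The annotation gives 60 such genes, and 49 of them had a nonzero value on all 3 arrays, among 6077 genes measured in that way. By symbol the 49 are 21 initiation factors, 3 elongation factors, 13 synthetases and 12 regulators or associated proteins, the last being kinases, binding proteins, methyltransferases and a scaffold protein that share the Eif or Eef symbols.

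Each array compared 2 purchased mouse RNAs, both amplified to cRNA in 1 round: total RNA from spleen, labelled with the red dye Cy5, and a universal reference RNA, labelled with the green dye Cy3. The 3 arrays form 1 group, and the labels give no strain, age, sex or treatment for either RNA. Both RNAs carry 1 catalogue number on all arrays, so the spread between arrays may be technical and the tests do not extend to other spleens. In bulk RNA, fewer cells of a type and less RNA per cell cannot be told apart.

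Values are log ratios as deposited, with base and numerator not stated, and folds are therefore given for base 2 and for natural logs. A positive ratio is called likely higher in spleen, because such ratios usually divide red by green and because of the markers. All 9 measured genes of spleen leukocytes and red cells were positive (1.73 to 5.34, median 3.88), and all 4 fibroblast matrix genes were negative (-3.24 to -0.94). Since the sample titles name the reference first, the opposite order remains possible, and every sign below would then turn. No dye swap is labelled, so dye and RNA cannot be told apart. Of 10 exocrine pancreas genes 9 were positive at 3.18 to 5.22 and Cel, a pancreatic lipase, was at -0.14 and did not pass. The 3 S phase genes lay between -0.19 and 0.16. The part of these other tissues and of cell division in the ratios below was not tested. Exact zeros, 24.2% to 26.8% of probes per array, were read as not measured. The deviations of neighbouring probe numbers from their means correlated at 0.44 to 0.59. Between adjacent probe numbers the correlation was far weaker, 0.057, once each probe was averaged over the arrays. Ratios are also given below with a running median over 5 to 40 probe numbers on either side subtracted. How far that subtraction brings in values of unrelated genes was not tested.

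Translation starts when initiation factors load the initiator tRNA on the small ribosomal subunit, bring that subunit to a capped messenger RNA and join the large subunit at the start codon. Elongation factors then deliver charged tRNAs and move the ribosome along, and synthetases charge each tRNA with its amino acid, with separate enzymes for most amino acids in cytosol and mitochondria. Rapidly growing cells are known to hold large amounts of this machinery, and kinases that phosphorylate eIF2 or proteins that bind eIF4E restrain it under stress or starvation.

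Promoters are shown for 5 members that lie on opposite sides of 0: the eIF3 subunits Eif3c and Eif3d (negative) and Eif3f (positive), and the cytosolic synthetases Sars (negative) and Iars (positive). They are the 250 bases before the transcript start in RefSeq, build GRCm38.p6: Eif3c at chr7:126566367-126566616 (minus strand), Eif3d at chr15:77970825-77971074 (minus), Eif3f at chr7:108934165-108934414 (plus), Sars at chr3:108445260-108445509 (minus) and Iars at chr13:49681880-49682129 (plus). Capitals mark matches, on either strand, to the ETS core CCGGAAG, the palindromic E-box CACGTG that Myc proteins bind, and TATAAA of the TATA box, and no marked matches overlap.
Eif3c: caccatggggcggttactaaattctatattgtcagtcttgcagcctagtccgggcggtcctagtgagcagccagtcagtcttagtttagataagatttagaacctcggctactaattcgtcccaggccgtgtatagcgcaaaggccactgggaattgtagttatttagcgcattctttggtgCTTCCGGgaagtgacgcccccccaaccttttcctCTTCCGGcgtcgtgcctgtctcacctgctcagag
Eif3d: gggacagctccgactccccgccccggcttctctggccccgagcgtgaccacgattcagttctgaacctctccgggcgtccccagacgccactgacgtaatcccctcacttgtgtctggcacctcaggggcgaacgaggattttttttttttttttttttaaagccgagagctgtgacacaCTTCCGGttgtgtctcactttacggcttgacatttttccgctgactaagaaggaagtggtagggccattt
Eif3f: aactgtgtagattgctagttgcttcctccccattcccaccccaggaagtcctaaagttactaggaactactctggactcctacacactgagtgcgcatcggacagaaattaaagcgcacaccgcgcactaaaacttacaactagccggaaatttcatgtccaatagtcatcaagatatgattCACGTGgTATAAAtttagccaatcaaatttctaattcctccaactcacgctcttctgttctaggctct
Sars: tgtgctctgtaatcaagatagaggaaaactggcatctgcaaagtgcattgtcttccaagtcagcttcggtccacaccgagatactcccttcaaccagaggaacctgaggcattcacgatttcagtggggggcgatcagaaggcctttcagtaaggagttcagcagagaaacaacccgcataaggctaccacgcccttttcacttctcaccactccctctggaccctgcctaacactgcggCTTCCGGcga
Iars: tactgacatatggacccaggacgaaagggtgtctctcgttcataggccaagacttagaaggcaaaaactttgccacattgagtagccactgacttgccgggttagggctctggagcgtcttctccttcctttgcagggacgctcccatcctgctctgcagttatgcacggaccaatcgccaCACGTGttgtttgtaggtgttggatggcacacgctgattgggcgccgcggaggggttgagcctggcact

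The 3 negative genes shown carry the ETS core and the 2 positive ones the E-box, but neither motif separated the members by sign. Of the 49 members 36 had a promoter in the table, read at the first start listed. The shares of all promoters below are over 27025 genes with a listed promoter, measured on these arrays or not. Shares over the measured genes alone were not computed. The ETS core was in 9 of the 36 (25%), against 7.05% of the promoters of 27025 genes. These 9 were Eif1ad, Eif1ax, Eif3c, Eif3d and Sars with negative calls, Cars2, Eif1b and Eif4ebp2 with positive calls, and Sars2 with none. The E-box was in 6 of 36 (16.7%, against 6.05% of all), namely Eif1b, Eif3f, Iars and Eef1aknmt, which were positive, and Eif4a1 and Eef2k, which were negative. TATAAA was in 2 of 36 (5.56%, against 13.0%), Eif3f and Eif2s3y. The core of the amino acid response element, TGATGNAA, was in 0 of 36, against 3.53% of all promoters. Sequence outside the 250 bases before the start was not searched, so the count does not show that these genes lack the element.

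Negative ratios, likely higher in the reference, were the more frequent among the members. Of 49 genes 28 were negative at an adjusted p under 0.05 in limma (57.1%), where 37.1% of all genes tested were, and 12 were positive (24.5%), where 33.2% of all genes were. The other 9 did not pass. The median over members was -0.21, and -0.03 over all genes tested. With a running median removed the members' median shrank to -0.093, -0.093, -0.066 and -0.088 for 5, 10, 20 and 40 probe numbers on either side, with all genes between -0.0027 and 0.00076. On each array alone the members' median was -0.26, -0.19 and -0.20, against -0.03 on each over all genes tested. On arrays 1 to 3, 33, 31 and 35 of the 49 lay below 0. By the mean of the 3 arrays 31 of the 49 did, as did 3190 of the 6077 genes tested. Of the 49 means 17 were under -0.5 and 5 above 0.5, where 1188 and 1083 of the 6077 genes tested were. Against a 1.5-fold change in base 2, 9 members passed with a negative ratio (9.58% of all genes did) and 1 with a positive ratio (10.3% of all genes did). In natural logs the counts past that change were 13 and 3, where 14.7% and 14.4% of all genes passed. With exact zeros kept as values, 17 members were negative (34.7%, against 20.8% of all genes) and 12 positive (24.5%, against 20.1%), so the positive share then lay above that of all genes rather than below. With the running median over 10 probe numbers on either side removed, 21 were negative (42.9%, against 34.8%) and 17 positive (34.7%, against 35.1%).

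**Figure D1:**
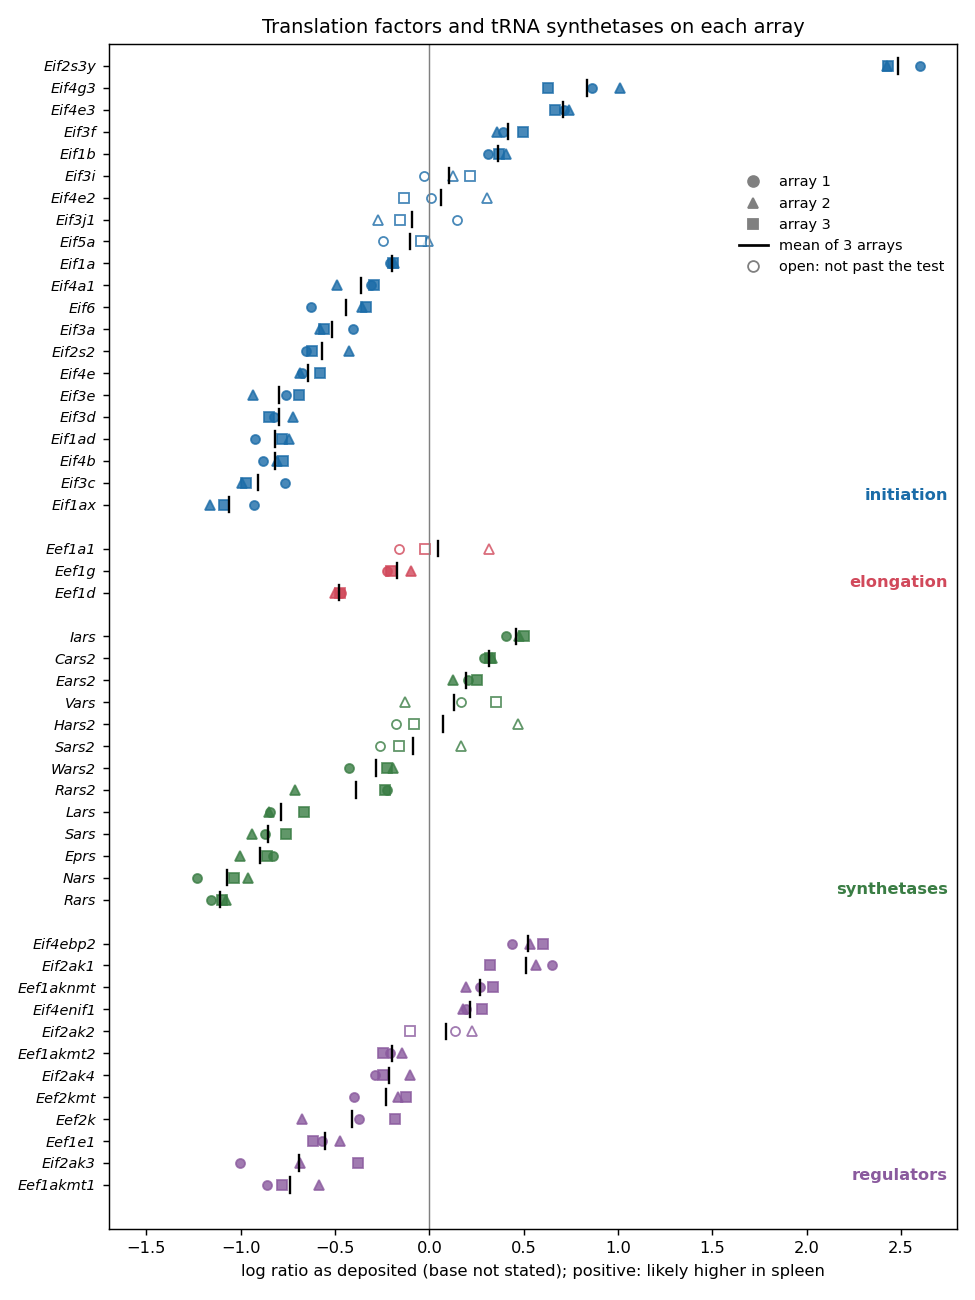
Log ratio (horizontal axis, base not stated) of each of the 49 members on arrays 1 to 3, with the mean as a black bar and colour for the class; open symbols did not pass limma's test. Means run from -1.11 for Rars to 2.49 for Eif2s3y, and most called genes lie left of 0 on all 3 arrays.

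Of the 21 initiation factors 12 were negative (57.1%, against 37.1% of all genes) and 5 positive (23.8%, against 33.2%). The other 4 were not called, and the median was -0.36. The lowest was Eif1ax, the X-linked eIF1A that helps the small subunit scan for the start codon, at -0.93, -1.16 and -1.09 on arrays 1 to 3 (mean -1.06 ± 0.12, SD, n = 3; adjusted p = 1.31e-05). That mean is 2.08-fold in base 2 and 2.89-fold in natural logs. Another 2 probes had values on arrays 1 and 3 only, from -1.73 to -1.05, and with zeros kept its mean was -0.71 (adjusted p = 0.0900). Eif1ad, a protein with an eIF1A-like domain, was at -0.92, -0.74 and -0.78 (mean -0.82 ± 0.094, SD, n = 3), below 0 on every array.

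The scanning and joining factors around it were divided. Eif1b, a close relative of the start-codon factor eIF1, was positive at 0.31, 0.40 and 0.37 (mean 0.36 ± 0.046, SD, n = 3), although its ratio was 0.07 with 5 probe numbers on either side removed (adjusted p = 0.149). Eif6, which keeps the large subunit from joining too early, had a mean of -0.44 with both measured probes alike (-0.44 and -0.43). Its call was lost without variance moderation (adjusted p = 0.0771). Eif5a, the hypusine-bearing factor now known mainly for its part in elongation and termination, had -0.25, -0.01 and -0.05 and did not pass (mean -0.10, adjusted p = 0.2499).

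eIF3 is the many-subunit scaffold that holds the small subunit and recruits messenger RNA. Of its 7 measured subunits 4 were negative (57.1%, against 37.1% of all genes) and 1 was positive (14.3%, against 33.2%). The other 2 were not called, and the median was -0.51. Eif3c, a core subunit, was at -0.76, -0.99 and -0.97 (mean -0.91 ± 0.13, SD, n = 3; adjusted p = 3.03e-05), and its 3 probes gave -0.94, -0.93 and -0.85. Eif3d, the subunit that can itself bind the cap, had a mean of -0.80 ± 0.069 (SD, n = 3) over 4 probes, from -0.93 to -0.73, and stayed called at -0.43 with 5 probe numbers on either side removed. These probes therefore lay closer together than the gap between Eif3c and Eif3f.

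Eif3f, also of the core, was on the other side at 0.39, 0.36 and 0.50 (mean 0.42 ± 0.073, SD, n = 3, adjusted p = 0.000959). It rests on 1 probe, and its ratio shrank to 0.23 and 0.16 with 20 and 40 probe numbers on either side removed, where it was still called. The core subunits Eif3e (mean -0.79) and Eif3a (mean -0.51) also rest on 1 probe each, and their ratios shrank to -0.03 and -0.01 with 5 probe numbers on either side removed (adjusted p = 0.421 and 0.682). Eif3a was also not called with 20 (-0.16, adjusted p = 0.0645). The loosely bound Eif3j1 changed sign between arrays (0.15, -0.27 and -0.16). The 2 probes of Eif3i, a peripheral subunit, gave -0.13 and 0.34, of which the second passed the probe test, and the gene mean of 0.10 did not pass.

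The eIF4 factors bind the cap and unwind the messenger RNA leader. Of 6 genes 3 were negative (50%, against 37.1% of all genes) and 2 positive (33.3%, against 33.2%). The other 1 was not called, and the median was -0.15. Eif4b, which stimulates the helicase eIF4A, was at -0.88, -0.81 and -0.77 (mean -0.82 ± 0.054, SD, n = 3; adjusted p = 2.54e-05). Eif4e, the cap-binding protein, had a mean of -0.64 ± 0.058 (SD, n = 3), but 0.06 with 5 probe numbers on either side removed (adjusted p = 0.144) and an adjusted p of 0.0690 with zeros kept. The helicase Eif4a1 had a mean of -0.36 ± 0.11 (SD, n = 3), not called without moderation (adjusted p = 0.0585).

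The positive eIF4 genes were Eif4g3 and Eif4e3. Eif4g3, a homologue of the scaffold eIF4G, was at 0.86, 1.01 and 0.63 (mean 0.83 ± 0.19, SD, n = 3; adjusted p = 0.000108). Eif4e3, a cap-binding relative of eIF4E, was at 0.71, 0.74 and 0.67 (mean 0.71 ± 0.039, SD, n = 3; adjusted p = 4.86e-05). Eif4g1 and Eif4g2, the other eIF4G genes, are not among the named probes analysed here.

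eIF2 carries the initiator tRNA, and 2 of its genes were measured. Eif2s2, the beta subunit, was negative at -0.66, -0.42 and -0.62 (mean -0.57 ± 0.13, SD, n = 3), and with zeros kept its mean was -0.27 (adjusted p = 0.133). Eif2s3y, the Y-linked gene of the gamma subunit, had the highest ratio of all members at 2.60, 2.43 and 2.43 (mean 2.49 ± 0.097, SD, n = 3; adjusted p = 2.14e-07), which is 5.61-fold in base 2 and 12.03-fold in natural logs. A share of 98.4% of the genes tested had a lower ratio. Its second probe was at 0 on every array, and with zeros kept the mean was 1.24. The X-linked copy Eif2s3x was not measured on all arrays, with 0.95 and 0.79 on arrays 1 and 2 for 1 probe and -0.40 on array 3 for the other. The sex of the animals behind either RNA is not labelled, and its part in this ratio was not tested.

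Few elongation factors were measured, and none was far from 0. eEF1 delivers charged tRNA: Eef1a1 is the GTP-binding carrier, and Eef1d and Eef1g belong to the complex that recharges it with GTP. Eef1d was negative at -0.47, -0.50 and -0.47 (mean -0.48 ± 0.017, SD, n = 3; adjusted p = 0.000337), but its 4 probes ranged from -0.999 to -0.06. Eef1g was at -0.22, -0.10 and -0.20 (mean -0.17 ± 0.068, SD, n = 3; adjusted p = 0.0447) over 5 probes from -0.56 to 0.21, and 12 of 17 alternatives ended its call or turned its sign, among them leaving out array 1 (adjusted p = 0.196) or array 3 (0.230). Eef1a1 had -0.16, 0.32 and -0.02 and did not pass (mean 0.05, adjusted p = 0.695), with array 2 apart from the others. With 5 and 10 probe numbers on either side removed it was called positive (0.34 and 0.25). Eef1b2, the catalytic subunit of the exchange complex, was not measured on array 1 and had -0.55 and -0.26 on arrays 2 and 3. The annotation ties the probes of the translocase Eef2 to Strap as well, so Eef2 is not named here.

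Of the 13 synthetases 7 were negative (53.8%, against 37.1% of all genes) and 3 positive (23.1%, against 33.2%). The other 3 were not called, and the median was -0.28. The cytosolic enzymes held the lowest ratios of the group. Rars, for arginine, was at -1.16, -1.08 and -1.10 (mean -1.11 ± 0.040, SD, n = 3; adjusted p = 5.17e-06), or 2.16-fold in base 2 and 3.04-fold in natural logs, and its 2 probes gave -1.22 and -1.002. Nars, for asparagine, was at -1.23, -0.96 and -1.03 (mean -1.07 ± 0.14, SD, n = 3; adjusted p = 1.54e-05). Eprs, which charges both glutamate and proline tRNAs, was at -0.83, -1.01 and -0.86 (mean -0.90 ± 0.094, SD, n = 3; adjusted p = 2.25e-05), and at -0.45 with zeros kept.

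Sars, for serine, was at -0.87, -0.94 and -0.76 (mean -0.86 ± 0.090, SD, n = 3), with probes at -0.90 and -0.82, and Lars, for leucine, had a mean of -0.79 ± 0.11 (SD, n = 3). The calls of these 5 enzymes held in all 17 alternatives other than the tests against a fold. Iars, for isoleucine, was the exception among the called cytosolic enzymes at 0.41, 0.48 and 0.50 (mean 0.46 ± 0.049, SD, n = 3, adjusted p = 0.000464). Its call rests on 1 probe and was lost with 5 probe numbers on either side removed (0.03, adjusted p = 0.523). Vars, for valine, had 0.17, -0.13 and 0.35 and did not pass (mean 0.13, adjusted p = 0.258). Without array 2 it passed (0.26, adjusted p = 0.0241). Rars, Eprs, Lars and Iars are all known subunits of 1 large multi-synthetase complex, and Iars alone of them was positive.

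Mitochondrial synthetases were divided in sign, at shares near those of all genes tested. Of 6 genes 2 were negative (33.3%, against 37.1% of all genes) and 2 positive (33.3%, against 33.2%), and 2 were not called. The median was -0.01, against -0.86 for the 7 cytosolic genes and -0.03 for all genes tested. The mitochondrial median was -0.20, 0.15 and -0.12 on arrays 1 to 3, with array 2 apart. It was -0.17 without array 2, 0.097 without array 1 and 0.049 without array 3. Cars2, for cysteine, was at 0.29, 0.33 and 0.32 (mean 0.31 ± 0.022, SD, n = 3; adjusted p = 0.00288), with 2 probes at 0.31 each. Ears2, for glutamate, was at 0.21, 0.13 and 0.25 (mean 0.20 ± 0.065, SD, n = 3; adjusted p = 0.0285), and its call was lost without array 1 (adjusted p = 0.118) and without array 3 (0.211).

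Rars2 (-0.39 ± 0.28, SD, n = 3) and Wars2 (-0.28 ± 0.13, SD, n = 3) were negative, but with 20 probe numbers on either side removed their ratios were -0.08 and -0.07 (adjusted p = 0.207 and 0.283). The call of Wars2 was also lost without array 1 (-0.21, adjusted p = 0.0820). Hars2 and Sars2 did not pass, and in both array 2 was positive (0.47 and 0.17) while arrays 1 and 3 were negative. Without array 2 Sars2 was called at -0.21 (adjusted p = 0.0391), whereas with 5, 10 and 20 probe numbers removed it was called positive. Hars2 was called positive at each of the 4 windows (0.28 to 0.40).

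**Figure D2:**
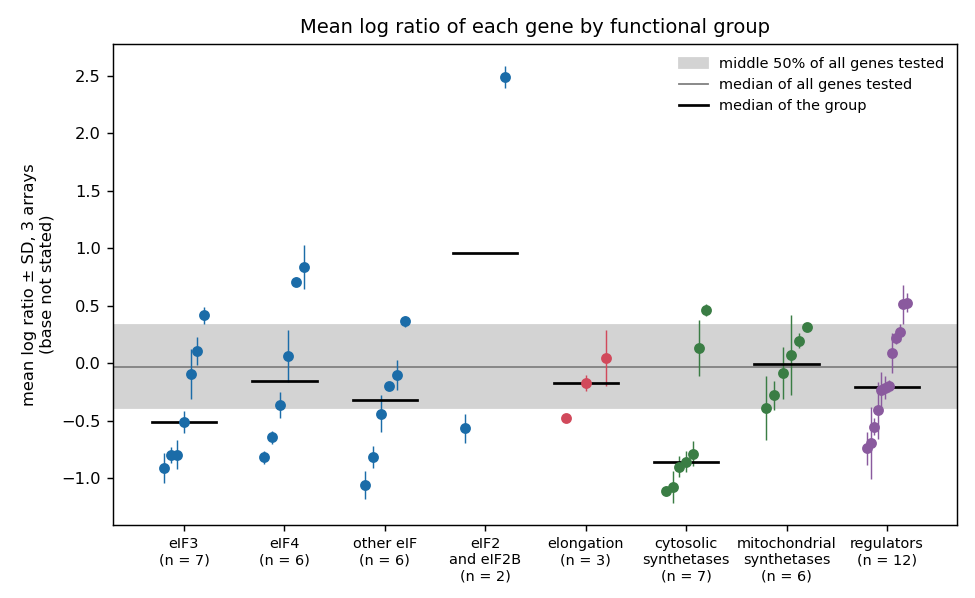
Mean log ratio ± SD over 3 arrays (vertical axis, base not stated) of each member, by functional group, with the group's median as a black line and the quartile range of all genes tested in grey. The cytosolic synthetases have a median of -0.86 and the mitochondrial ones -0.01; 5 cytosolic genes lie below the grey band.

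Set side by side, initiation factors, elongation factors and synthetases had medians of -0.36, -0.17 and -0.28. On arrays 1 to 3 the medians were -0.31, -0.36 and -0.29 for initiation, -0.22, -0.10 and -0.20 for elongation, and -0.26, -0.19 and -0.22 for synthetases. Initiation was thus the lowest on each array and elongation the least negative, but the gaps were small. Initiation minus synthetases was -0.05, -0.16 and -0.07 on the 3 arrays, and this difference turned to 0.08 with zeros kept. It was 0.13 with probes measured on at least 2 arrays, where the classes hold further genes (53 members rather than 49). Elongation minus synthetases turned negative at each running median window, between -0.11 and -0.01. The order of the 3 classes therefore depended on the processing.

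The larger contrast lay inside the synthetases. Cytosolic minus mitochondrial enzymes was -0.64 on array 1, -1.08 on array 2 and -0.64 on array 3, and it ranged from -1.28 to -0.64 over the alternatives. No test is given, since genes of a class are not replicates. Within initiation, eIF3 minus eIF4 was -0.25, -0.49 and -0.35 on arrays 1 to 3.

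**Figure D3:**
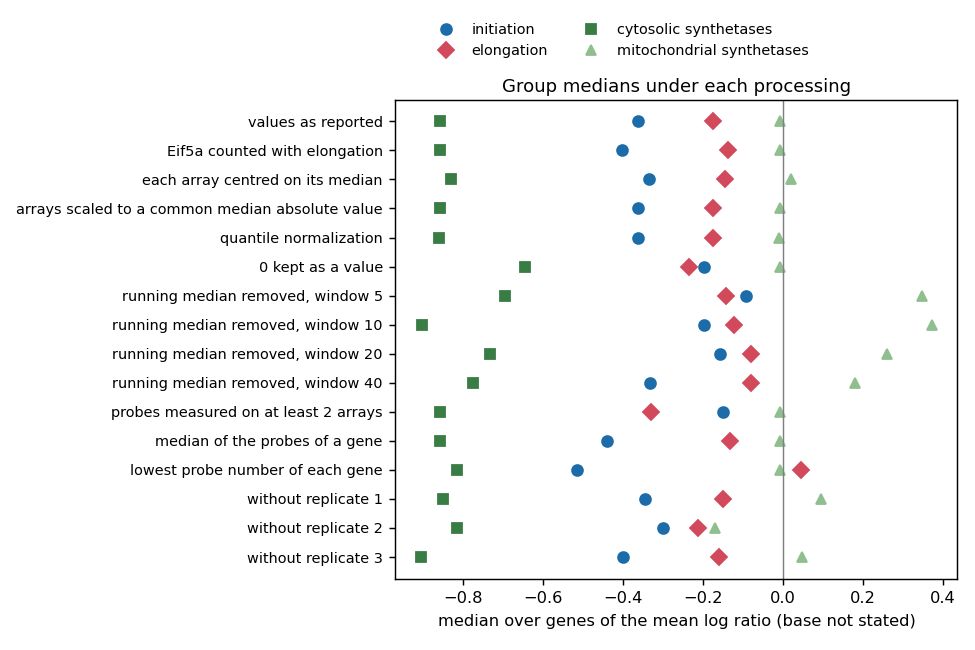
Median log ratio (horizontal axis, base not stated) of 4 groups of genes with the values as reported and under each alternative processing. Cytosolic synthetases stay lowest throughout, from -0.91 to -0.64, while initiation and elongation change order.

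Of the 12 regulators and associated proteins 7 were negative (58.3%, against 37.1% of all genes) and 4 positive (33.3%, against 33.2%). The other 1 was not called, and the median was -0.21. The kinases named Eif2ak phosphorylate eIF2 and so slow initiation, and they went different ways. Eif2ak1, the heme-regulated kinase of red cell precursors, was positive at 0.65, 0.57 and 0.32 (mean 0.51 ± 0.17, SD, n = 3; adjusted p = 0.000969). Eif2ak3, the kinase that senses unfolded protein in the endoplasmic reticulum, was negative at -1.01, -0.69 and -0.38 (mean -0.69 ± 0.31, SD, n = 3; adjusted p = 0.00127).

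The other kinases of eIF2 were near 0. Eif2ak4, which senses uncharged tRNA, had -0.29, -0.10 and -0.25 (mean -0.21 ± 0.098, SD, n = 3; adjusted p = 0.0257), and 10 of 17 alternatives ended its call, among them leaving out array 1 (adjusted p = 0.148) or array 3 (0.133). Eif2ak2, the kinase activated by double-stranded RNA, had 0.14, 0.23 and -0.10 and did not pass (mean 0.09, adjusted p = 0.365), though it was called positive with 5, 10 and 20 probe numbers on either side removed (0.35, 0.55 and 0.48). Without variance moderation the calls of Eif2ak1 (adjusted p = 0.0656) and Eif2ak3 (0.1000) were lost.

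Both measured binding proteins of eIF4E were positive. Eif4ebp2, which keeps eIF4E from its scaffold, was at 0.44, 0.53 and 0.60 (mean 0.52 ± 0.083, SD, n = 3; adjusted p = 0.000317), and 0.81 to 1.00 with a running median removed. Eif4enif1, which carries eIF4E into the nucleus, was at 0.19, 0.18 and 0.28 (mean 0.22 ± 0.053, SD, n = 3; adjusted p = 0.0173). The latter call was lost without array 1 (adjusted p = 0.0673) and without array 3 (0.153). Eif4e itself was negative, so the transcripts of eIF4E and of these binding proteins lay on opposite sides in the values as deposited. With 5 probe numbers on either side removed, Eif4e was at 0.06 and not called (adjusted p = 0.144). Protein was not measured.

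Eef1e1 and Eef2k, which share the Eef symbols, were negative in the values as deposited. Eef1e1, an auxiliary protein of the multi-synthetase complex, was at -0.57, -0.47 and -0.62 (mean -0.55 ± 0.073, SD, n = 3; adjusted p = 0.000220), on the side of Rars, Eprs and Lars, and at -0.06 with 10 probe numbers on either side removed (adjusted p = 0.227). Eef2k, the kinase that inhibits eEF2, was at -0.37, -0.67 and -0.18 (mean -0.41 ± 0.25, SD, n = 3; adjusted p = 0.00749), a call lost without moderation (0.147) and with zeros kept (0.119).

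Methyltransferases of the elongation factors were divided. Eef1akmt1 was at -0.86, -0.58 and -0.78 (mean -0.74 ± 0.14, SD, n = 3), with both measured probes alike (-0.75 and -0.73). With zeros kept it was at -0.30 (adjusted p = 0.418). Eef2kmt, whose substrate is eEF2, was at -0.40, -0.16 and -0.12 (mean -0.23, adjusted p = 0.0301), and Eef1akmt2 at -0.21, -0.14 and -0.25 (mean -0.20, adjusted p = 0.0244). Eef1aknmt was positive at 0.27, 0.20 and 0.34 (mean 0.27, adjusted p = 0.00809). The calls of these genes were not stable: Eef1akmt2 and Eef1aknmt changed sign with 5 probe numbers on either side removed (0.07 and -0.14). In the opposite direction Eef1aknmt was then called (adjusted p = 0.0304), as was Eef1akmt2 with 10 removed (0.13, adjusted p = 0.0460). Eef2kmt lost its call without array 1 (adjusted p = 0.199), as did Eef1akmt2 (0.106). Without array 3 the calls of Eef1akmt2 (adjusted p = 0.181) and Eef1aknmt (0.0742) were lost.

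Separate probes give a check on single genes. Of the 49 members 14 had more than 1 measured probe, and the median gap between a gene's highest and lowest probe was 0.21, against 0.35 over the 1491 such genes in all. In the fit over probes, where 68.3% of all probes were called in some direction, probes of 2 members were called in opposite directions (14.3%, against 9.32% of such genes in all). Eif1a, the autosomal eIF1A gene, had probes at -0.64 and -0.53 and another, probe 15424, at 0.68, 0.49 and 0.59 (mean 0.59 ± 0.093, SD, n = 3). Its gene mean of -0.20 on each array (-0.21, -0.19 and -0.19; adjusted p = 0.0232) is therefore an average that no probe shows, and its call was lost without array 1 (adjusted p = 0.106) and without array 3 (0.130).

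Eif4e2, a cap-binding homologue that represses translation, had 1 probe at -0.59, -0.61 and -0.84 and another at 0.61, 1.22 and 0.57. Its gene values of 0.01, 0.31 and -0.13 (mean 0.06, adjusted p = 0.575) average 2 opposite calls. In contrast, the probes of Eif3c, Eif3d, Rars, Sars, Eef1akmt1, Eif6, Eif2ak4 and Cars2 each lay within 0.22 of one another. Which transcripts the discordant probes bind was not tested.

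**Figure D4:**
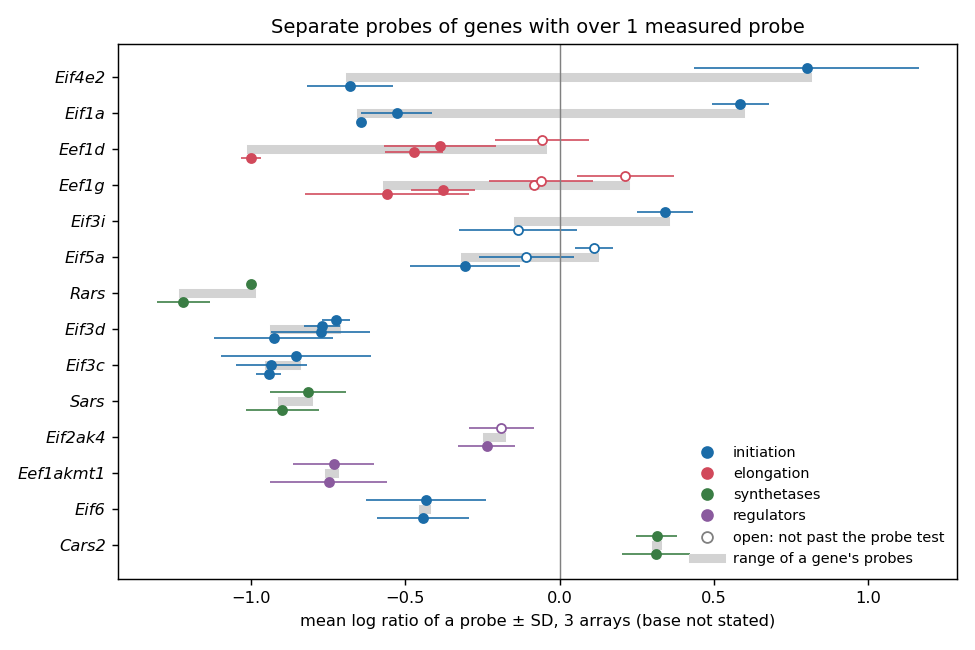
Mean log ratio ± SD over 3 arrays (horizontal axis, base not stated) of each probe of the 14 members with more than 1 measured probe, ordered by the gap between probes, which the grey bars span. The widest gaps are 1.48 for Eif4e2 and 1.23 for Eif1a, and the probes of Rars, Sars, Eif3c and Eif3d all lie below -0.7.

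Members without a full set of values were 11. Eif3h, Eif3l, Eif4a3, Eif4ebp1, Gars and Wars were listed at 0 on every array, and Eef1b2, Eif2d, Eif2s3x, Eif5 and Hars had values on 1 or 2 arrays. Eif2d had 0.04 and 0.22 on arrays 1 and 3, Eif5, which triggers GTP hydrolysis by eIF2, had 0.10 on both arrays 2 and 3, and Hars had -0.40 on array 3. An exact 0 says nothing here about expression.

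Other genes of translation and of the amino acid response were taken from a list of 64 symbols outside the rule, of which 19 were measured. Of these 8 were negative (42.1%, against 37.1% of all genes tested) and 5 positive (26.3%, against 33.2%). The other 6 were not called, and the median was -0.03, against -0.03 over all genes tested. The lowest was Chac1, a glutathione-degrading enzyme induced by the stress factor Atf4, at -2.20, -2.71 and -1.94 (mean -2.28 ± 0.39, SD, n = 3; adjusted p = 7.06e-06). Ddit3, a transcription factor of the same response, followed at -0.84, -0.69 and -0.94 (mean -0.83 ± 0.12, SD, n = 3), and Denr, which helps release and reuse ribosomes, at -0.84, -0.88 and -0.61 (mean -0.78 ± 0.15, SD, n = 3).

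Slc3a2, the heavy chain of amino acid transporters, was on the same side (-0.73), as were the mitochondrial factors Mrrf (-0.73) and Tsfm (-0.56), the growth-pathway GTPase Rheb (-0.57) and the RNA-binding protein Larp1 (-0.39). The highest was Mtif2, the mitochondrial initiation factor, at 1.34, 1.31 and 1.47 (mean 1.37 ± 0.084, SD, n = 3; adjusted p = 2.60e-06). Mknk2, a kinase of eIF4E, was at 0.80, 0.92 and 0.56 (mean 0.76 ± 0.18, SD, n = 3), and the helicase Ddx3x at 0.99, 0.65 and 0.57 (mean 0.74 ± 0.23, SD, n = 3). Ppp1r15b, which directs a phosphatase to eIF2, was positive (0.67), as was the growth kinase Mtor (0.37). The poly(A)-binding proteins Pabpc1 (-0.03) and Pabpc4 (0.07) did not pass.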

How the data were processed

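The deposited table holds a log ratio for each array at 16273 probes. No source used here states how the authors scanned, corrected or normalized the arrays, nor the base or direction of the logs, and values were tested as deposited. Per the labels, spleen cRNA carried Cy5 and reference cRNA Cy3. Exact 0 was read as not measured, leaving 11086 probes with values on all 3 arrays. Of these, 8591 had 1 symbol in the platform annotation (12336 of the 16273 probes do, 61 have several, 3876 are unnamed) and were averaged into 6077 genes.

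Each gene was tested against 0 across all genes with limma 3.58.1 in R 4.3.3 (intercept fit with eBayes moderation; calls are two-sided at p under 0.05 after Benjamini-Hochberg adjustment), and probes in a separate fit. The script was tested on simulated data. The number of arrays limits the precision, and signal over background is unknown.

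Classes follow symbols. The members, lists and alternatives were chosen with earlier results of these data known. Per-array values were printed for the 4 highest and 4 lowest initiation factors and synthetases, all elongation factors and regulators, members with opposite probe calls, and the 3 highest and lowest related genes; further genes were added after their values were seen. Alternatives were array scaling, handling of zeros, removal of a running median along probe numbers, probe averaging, moderation, thresholds and leaving out each array. Motifs were searched as literal strings in RefSeq promoters. Figures used matplotlib 3.10.9 in Python 3.11.15.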

Additional observations from a re-analysis of the deposited data

How the results depend on the processing

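Of the 28 negative members 9 kept their call and sign in all 17 alternatives other than the tests against a fold (Eif3c, Eif3d, Eif4b, Eif1ad, Rars, Nars, Eprs, Sars and Lars), and of the 12 positive members 6 did (Eif3f, Eif4e3, Eif4g3, Eif2s3y, Cars2 and Eif4ebp2). The share of all called genes that kept their call in this way was not computed. Against a 1.5-fold change in base 2, 9 members were called negative and 1 positive, where 9.58% and 10.3% of all genes were. Of the 19 related genes 3 were called in either direction, beside these same 2 shares of all genes. In natural logs 13 members were called negative and 3 positive (14.7% and 14.4% of all genes). With zeros kept 17 members were negative. Leaving out an array gave 22 to 29 negative members (44.9% to 59.2%, against 32% to 36.3% of all genes). Positive members were then 9 to 13 (18.4% to 26.5%, against 28.2% to 32% of all genes). With probes measured on at least 2 arrays 53 members entered rather than 49, so class medians and differences in that setting cover further genes. Where values moved, the cause was not tested.

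The initiation median was -0.40 with Eif5a counted as elongation, -0.20 with zeros kept, -0.093, -0.20 and -0.16 with windows of 5, 10 and 20 probe numbers on either side removed, -0.15 with probes on at least 2 arrays, -0.44 with the median of probes, -0.51 with the lowest probe number and -0.40 to -0.30 without 1 array. The elongation median was -0.079 and -0.080 with windows 20 and 40, -0.33 with at least 2 arrays and 0.045 with the lowest probe number. The synthetase median was -0.040, -0.012, -0.066 and 0.0073 with windows 5 to 40 and -0.31 to -0.21 without 1 array. Cytosolic synthetases had -0.64 with zeros kept, and -0.70 and -0.73 with windows 5 and 20, and mitochondrial ones 0.35, 0.37, 0.26 and 0.18 with windows 5 to 40. Their difference was -1.28 with window 10.

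Initiation minus elongation was 0.040 with zeros kept, 0.049, -0.074 and -0.079 with windows 5, 10 and 20, 0.18 with at least 2 arrays, -0.31 with the median of probes, -0.56 with the lowest probe number and -0.24 to -0.088 without 1 array. Initiation minus synthetases was 0.085 with zeros kept, -0.18 and -0.34 with windows 10 and 40, 0.13 with at least 2 arrays, -0.16 with the median of probes and -0.23 with the lowest number. Elongation minus synthetases was 0.045 with zeros kept, -0.10, -0.11, -0.012 and -0.088 with windows 5 to 40, -0.050 with at least 2 arrays, 0.15 with the median of probes, 0.33 with the lowest number and 0.018 to 0.15 without 1 array.

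With no such count made over all genes, 12 members turned sign under some alternative. Those called before or after were Eef1akmt2 (0.066, 0.13, 0.11 and 0.011 with windows 5 to 40), Eef1aknmt (-0.14 and -0.055 with windows 5 and 10), Sars2 (0.52, 0.45 and 0.34 with windows 5 to 20, and uncalled at 0.084 with window 40 and 0.0036 without array 1), Eif4e (0.057 with window 5), Wars2 (0.0073 with window 40), and, with the lowest probe number, Eef1g (0.21) and Eif4e2 (-0.68; uncalled at -0.025 with zeros kept, -0.024 with at least 2 arrays and -0.062 without array 2). The other 5, uncalled before and after the turn, were Eif3j1 (0.0099, 0.12 and 0.19 with windows 10 to 40), Vars (-0.040 with window 5), Eif3i (-0.13 with the lowest probe number), and, without array 2, Eef1a1 (-0.092) and Hars2 (-0.13). No paired analysis was possible because the arrays form 1 group.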

Other observations

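Several members had probes left out because 1 or 2 arrays were at 0, and their values ran with or against the measured probes as follows. A left-out Rars probe had -1.52 on array 1, a left-out Sars probe -0.66 on array 2 and a left-out Eif4e probe -0.55 and -1.17 on arrays 2 and 3, all on the side of the gene's mean. Further Eif1ax probes had -1.05 on arrays 1 and 3, and -1.49 and -1.73. Of the left-out Eef1g probes, 1 had -0.64 and -0.77 on arrays 1 and 3 and another -0.40 and -0.53 on arrays 2 and 3, lower than the gene's mean of -0.17. A left-out Eef1akmt1 probe stood at 1.79 on array 2, against a gene mean of -0.74, and rests on that single value. The left-out Eif6 probe had -0.08 on array 3, against a gene mean of -0.44. That of Eif4e2 had -0.48 and -0.11 on arrays 2 and 3, against a gene mean of 0.06. Those of Eef1a1 (-0.11 and 0.07 on arrays 1 and 2), Vars (0.02 and 0.44 on arrays 2 and 3) and Eif2s2 (-0.77 on array 1) were also left out.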
